A study of Mus musculus with 16 samples.

Results

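The untreated tumours were 4 of the 16 mouse melanoma biopsies in the study, chosen by the word Untreated in their titles and described in the labels as controls. Each biopsy was 1 array on which tumour RNA carried Cy5 and the Universal Mouse Reference carried Cy3. The other groups held 4 biopsies each, taken after 4, 60 or 120 days of treatment, and the 120-day tumours are titled Resistant. The series title names BRAF inhibitors. The compound, its dose, the strain, genotype, age and sex of the mice, and the RNA that makes up the reference are not given in the sources used here, and nothing in the labels says that the biopsies came from separate animals. The titles of replicates 1 to 3 share the code RG10 and that of replicate 4 has RG9. What the code marks is not stated, so the 4 biopsies may stand for fewer than 4 independent animals or litters. The p-values below therefore measure only the spread between these 4 arrays.

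A ratio on such an array sets the tumour against a mixture, so a high value means more of a transcript per unit of RNA than in that mixture, and a low value may be a high level in the mixture. Melanoma arises from melanocytes, the neural crest derived pigment cells that reside in hair follicles and skin. Their pigment enzymes and melanosome proteins are driven by the factor MITF, with SOX10 and PAX3 upstream of it. A biopsy also takes in skin, muscle, fat, vessels and immune cells, so each value is for the whole piece of tissue. In such bulk RNA, fewer cells of a type and less RNA per cell cannot be told apart.

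The 7 melanocyte markers (Tyr, Tyrp1, Dct, Pmel, Mlana, Mitf and Sox10) gave Cy5 signals well above background on all 4 arrays, so the tumours carried the transcripts of the labelled cell type. Markers of fibroblasts, endothelium, keratinocytes, hair follicle, fat, skeletal muscle, macrophages and granulocytes did so too. The T cell marker Cd8a, the liver markers Alb and Apoa1 and the germ cell marker Ddx4 were not measured above background often enough to be tested. Other markers of such types were: Cd3e and Cd3g of T cells, Cd79a of B cells, Prm1 of germ cells and Snap25 of neurons had Cy5 above background on all 4 arrays. Cy5 was above background for 50.1% to 54.2% of probes on the 4 arrays and Cy3 for 54.7% to 63.1%. No untreated spot was saturated in either channel. Replicate 3 stood apart: its ratios correlated with those of the other 3 tumours at r = 0.803 to 0.839 across genes (a description, since genes are not replicates), against 0.903 to 0.958 among the others. On it 1972 genes lay more than 1 log2 unit from the mean of the other 3, against at most 626 on each of the others.

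Of 22743 genes tested, 3067 were at least 2-fold higher in tumour than in reference (13.5% of the genes tested) and 1716 were at least 2-fold lower (7.55%), by limma with a Benjamini-Hochberg adjusted p under 0.05. The ratio had the same sign in all 4 tumours for 3038 of the higher and 1708 of the lower genes. Large ratios were mostly on the tumour side: 1136 genes were at least 4-fold higher and 296 at least 4-fold lower, and 183 against 11 passed 16-fold. The split of the calls depended on how the channels were scaled. Calls were 64.1% higher with loess, 48.4% with the scanner software's own processed signals, 49.7% with the deposited value table and 26.3% when each array was only centred on its median. Those 3 scalings moved the median over all genes from 0.02 to -0.13, -0.12 and -0.36 on the log2 scale. No gene called one way was called the other way under any of them. Without replicate 3 there were 3165 higher and 1920 lower genes. Because Cy5 was always the tumour, a dye effect and a difference between tumour and reference cannot be told apart for any single gene.

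**Figure D1:**
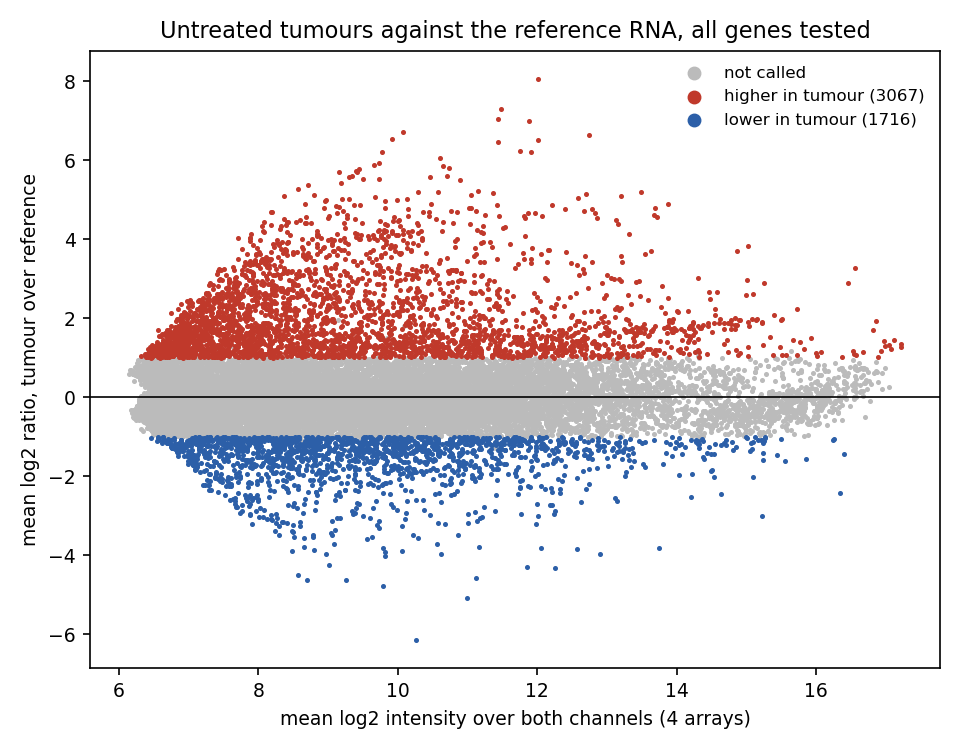
Mean log2 ratio of tumour over reference (vertical axis) against the mean log2 intensity of both channels (horizontal axis) for all 22743 genes tested, as means over the 4 untreated arrays. The 3067 genes called higher reach further from 0 than the 1716 genes called lower.

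The reference channel was not constant for skin, hair, muscle, pigment and class II genes. Among 18196 genes above background in both channels on all 4 arrays, the normalized Cy3 signal had a median SD of 0.104 (log2) between arrays, and 441 genes had an SD over 0.5. Of those 441, 344 were called higher in tumour and 10 lower. The highest Cy3 signal was on the array of replicate 3 for 311 of them, and on the same array as the highest Cy5 signal for 322. S100a9 had Cy3 processed signals of 499, 388, 2211 and 471 beside Cy5 signals of 43463, 37125, 134813 and 30598. Lum, with Cy5 signals of 65141, 84278, 23995 and 56972, held Cy3 signals of 380, 408, 346 and 321. Over all hair follicle list members measured in both channels the median Cy3 SD was 1.61, over keratinocyte genes 1.02, over stefins 0.900, over skeletal muscle genes 0.484, over pigment genes 0.458 and over class II genes 0.417. It was 0.138 over matrix and 0.0724 over cell cycle genes. Single genes of other lists also had a Cy3 SD over 0.5, among them Mcpt4 (0.91), Meg3 (0.79), Cfd (0.56) and Apoe (0.54).

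For the keratinocyte list replicate 3 was 1.14 log2 units above the 4-array mean in Cy5 and 1.25 above it in Cy3, so its ratios (list mean 3.72) gave no sign of either. The ratios of such genes are thus set against a Cy3 level that moved with the tumour on the same array, and 7 of the 12 genes of highest ratio described next, the 3 stefins, Krt6b, Plbd1, Chl1 and S100a9, had a Cy3 SD over 0.5. The part of this in the ratios was not tested. Leaving out all 441 genes, 2003 of the 2347 genes called higher and measured in both channels remained.

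Among genes measured above background in both channels on all 4 arrays, the highest ratios belonged to skin protease inhibitors, matrix proteins and neural crest membrane proteins. The gene Cstdc5, a stefin-type protease inhibitor, had log2 ratios of 8.45, 8.23, 8.12 and 7.43 in replicates 1 to 4 (mean 8.06 ± 0.18 SE, adjusted p = 3.0e-05, limma). Its relatives Stfa3 and Stfa1 averaged 7.30 and 7.004, and 6 of the 8 stefins of this cluster were higher, a family whose near-identical members can share probe signal. Lum, the collagen-binding proteoglycan lumican, read 7.38, 7.57, 5.997 and 7.23, which is 132-fold above the reference. Replicate 3 was the lowest tumour for Lum and replicate 4 for the stefins, and none came near 0.

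Postn (periostin, a matrix protein of remodelling stroma) averaged 6.50 ± 0.21, Itih5 (which binds hyaluronan-linked matrix) 6.70 ± 0.30 and Sparcl1 (a secreted matrix glycoprotein) 6.23 ± 0.40 (SE, n = 4). Gpm6b, a membrane proteolipid of neural and Schwann cells, averaged 6.46, and Chl1, a neural cell adhesion molecule, 6.21 on its brighter probe and 4.52 on the other. Krt6b, a keratin of wounded and follicular epidermis, averaged 6.64. The remaining genes of the top 12 were the lysosomal Plbd1 at 6.54 and the granulocyte protein gene S100a9 at 6.20. All 12 had the same sign in every tumour, and replicate 3 gave the lowest value for Lum, Itih5, Krt6b, Postn, Gpm6b, Sparcl1 and Chl1.

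**Figure D2:**
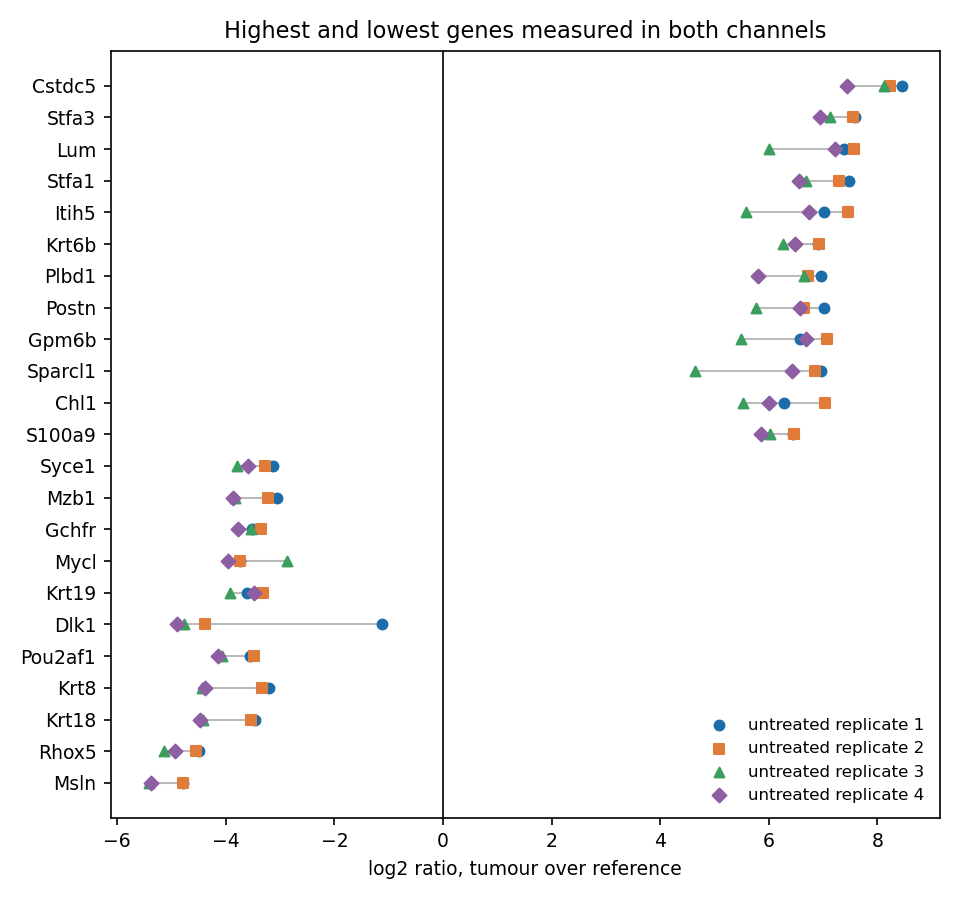
Log2 ratio of tumour over reference (horizontal axis) on each untreated array for the 12 highest and 11 of the 12 lowest genes measured in both channels on all 4 arrays. Cstdc5 heads the list at a mean of 8.06 and Msln closes the plot at -5.09. Dlk1 in replicate 1, at -1.13 on its brighter probe, is the point farthest from its group.

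For 475 genes only the tumour channel was above background, so only a lower bound can be given: the tumour signal against the dimmest measurable reference signal. Foxd3, which specifies neural crest cells, had the highest bound, at least 34.4-fold higher, and Tfap2b, an AP-2 factor of melanocyte and crest lineages, at least 22.6-fold higher (limma adjusted p = 0.00016 and 0.00017). Foxd3 read 4.91, 6.48, 4.43 and 5.29 on the log2 scale and Tfap2b 3.92, 5.19, 5.55 and 4.13, with the highest value in different tumours. Pcdh20 (a protocadherin) was at least 22.1-fold, Frem1 (a basement membrane protein) at least 18.7-fold, Slitrk6 (a neuronal membrane protein) at least 17.7-fold and Armh4 at least 14.9-fold higher. Ccr2, the chemokine receptor of inflammatory monocytes, was at least 14.2-fold higher, with 4.97 and 4.89 in replicates 1 and 3 and 3.54 and 2.76 in replicates 2 and 4. Mup20, a major urinary protein, was at least 28.7-fold higher on 1 probe, but its other probe averaged 1.06, and the Mup genes are near-identical copies.

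The pigment genes did not move as a block against this reference. Of 16 pigment genes on the array 12 were tested, of which 5 were higher and 2 lower, with a median log2 ratio of 0.77 beside 0.02 for all genes. The median depended on the treatment of dim signals: it was 2.41 with processed signals (7 higher), 1.82 with normexp offset 0 (7 higher), 1.87 with the value table (6 higher) and 0.80 with median centring. The promoters of 3 pigment enzyme genes are shown here because the CATGTG core of the M-box, which MITF binds, is the feature they are known to share. The stretches are from the RefSeq promoter table (build GRCm38.p6), read 5′ to 3′ on the gene's strand, with the core in capitals.
Tyr, chr7:87493513-87493602, minus strand: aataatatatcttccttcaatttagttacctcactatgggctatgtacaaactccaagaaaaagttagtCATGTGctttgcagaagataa
Tyrp1, chr4:80834123-80834212, plus strand: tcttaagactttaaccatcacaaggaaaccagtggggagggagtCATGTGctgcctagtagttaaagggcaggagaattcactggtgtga
Dct, chr14:118052349-118052438, minus strand: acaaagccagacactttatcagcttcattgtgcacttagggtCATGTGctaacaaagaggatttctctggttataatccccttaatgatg
The core begins 21 bases before the annotated start in Tyr, 46 before in Tyrp1 and 150 before in Dct. CATGTG on either strand (read as CACATG on the other) was searched from 250 bases before to 50 bases after each start and found in 7 of the 11 pigment genes with a promoter entry (63.6%), in 0 of 7 lineage regulators, 3 of 9 keratinocyte genes, 1 of 12 matrix genes, 4 of 25 cell cycle genes and in 15.9% of all 27025 promoters in the table. A match is a run of letters and not evidence of binding.

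The genes behind these promoters had very different ratios. Dct, which encodes dopachrome tautomerase, read 5.15, 6.50, 5.12 and 5.54 (mean 5.58 ± 0.25 SE, adjusted p = 7.2e-05, limma), and its other probe averaged 4.83. Tyrp1, the tyrosinase-related enzyme, read 3.29, 2.67, 3.11 and 1.95 (mean 2.75 ± 0.23). Tyr, the rate-limiting enzyme tyrosinase, read 0.42, 0.31, 0.67 and 0.11 and passed neither the fold minimum on its tested probe nor the background filter on its other probe. The reference was above background on 3 of 4 arrays for Dct and on 1 of 4 for Tyrp1, so elsewhere their ratios are set against background and shrunk by the offset, and no order among the 3 genes is read from them. The Cy3 SD was 0.64 for Dct and 0.56 for Mlana.

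Melanosome genes varied likewise. Rab38, a small GTPase that carries enzymes to melanosomes, averaged 3.097 ± 0.15, and Mlana, a melanosome membrane antigen, 2.54 ± 0.11. Pmel, which forms the fibrils on which melanin is laid down, read 1.88 and 1.87 in replicates 1 and 3 and 0.93 and 0.97 in replicates 2 and 4. Gpnmb, a glycoprotein of melanosomes and of macrophages, was lower in tumour in all 4 at -2.38, -2.95, -1.40 and -3.06 (adjusted p = 0.0012, limma). Slc24a5, a melanosomal exchanger, was lower at -1.10. The transporter gene Slc45a2 (0.83), the melanocortin receptor gene Mc1r (0.72), Trpm1 (0.46) and Rab27a (-0.07) were not called. Oca2, Gpr143, Mlph and Slc24a4 were too dim in both channels to be tested.

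Of the 10 lineage regulators, 6 were higher and 2 lower. Besides Tfap2b, the higher ones were Sox10 at 3.21 ± 0.18, the receptor genes Kit (2.12 ± 0.22), Ednrb (1.99 ± 0.17) and Erbb3 (1.18 ± 0.19), and Tfap2a (1.30 ± 0.17). Erbb3 lost its call without replicate 2. Sox10 read 3.42, 3.61, 2.61 and 3.21, with replicate 3 lowest. Mitf itself averaged 0.42 on its brighter probe and 0.82 on the other, and its sign turned to -0.24 when arrays were only median-centred. The paired-box factor Pax3 was lower at -1.28 and the receptor gene Met at -1.03, a call that Met lost without replicate 1. Lef1, a WNT effector, was not called at -0.78. For Mitf, Pax3, Met, Tyr and Gpnmb the reference was above background on all 4 arrays, so the reference channel gave signal for these genes too. For Tyr that signal was dim, with Cy3 processed signals of 57 to 78, and its other probe was above background in neither channel.

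**Figure D3:**
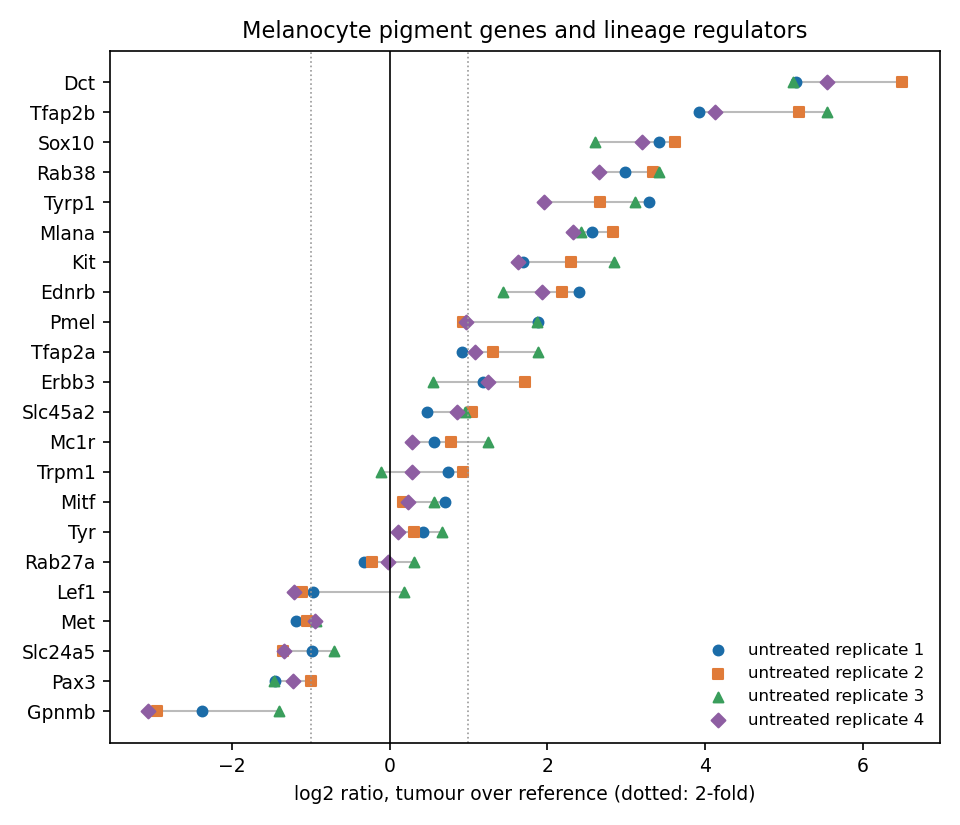
Log2 ratio of tumour over reference (horizontal axis) on each untreated array for the 22 tested pigment genes and lineage regulators, ordered by their mean, with dotted lines at 2-fold. Dct and Tfap2b plot highest at 5.58 and 4.70, both with a reference not above background on every array, Tyr and Mitf near 0 and Gpnmb lowest at -2.45.

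Genes of the neural crest and of Schwann-like melanoma cells formed a more even group: 13 of 16 were higher, none lower, with a median of 2.72. Ngfr, the nerve growth factor receptor that marks crest-like cells, averaged 4.14, S100b, a calcium-binding protein used as a melanoma and Schwann marker, 4.18, and Fabp7, a brain fatty acid binding protein, 4.68. These 3 were chosen after their values were seen. Among the brightest members, named by rule, were Sox5, a partner of SOX10 (1.71 ± 0.17), Gfra2, a neurturin receptor (2.64 ± 0.17), and Aqp1, a water channel (2.81 ± 0.26), all called higher. Replicate 3 had the lowest mean over the list, 2.26, against 2.71 to 3.31 in the others. Without it 13 members were called higher and the median was 2.86.

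The RAS-RAF-MEK-ERK cascade carries growth signals, and mutant BRAF or NRAS drives it in melanoma. Its component genes lay near the reference: 1 of 14 was higher and 2 were lower, with a median of 0.02. Braf averaged -0.23 ± 0.10, with -0.12, -0.41, -0.03 and -0.34 in the 4 tumours. Cdkn2a, which encodes the INK4A and ARF inhibitors, read -0.39 and -0.48 in replicates 1 and 3 and 0.75 and 0.48 in replicates 2 and 4, and its mean of 0.09 changed sign with the scaling and with the tumour left out. Nras was called higher at 1.13 on 1 probe, a call lost without replicate 4, and averaged 0.45 and 0.51 on its other 2. Map2k1, which encodes MEK1, was lower at -1.29 ± 0.15.

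Genes that the pathway switches on were split, 5 of 17 higher and 3 lower. The balance depended on the scaling: 3 were higher and 5 lower with processed signals and with median centring, and 4 and 5 with the value table. With normexp offset 0 and with no background correction 5 were higher and 4 lower. Ccnd1, cyclin D1, read 2.78, 2.72, 1.75 and 2.81, with replicate 3 apart from the rest. The feedback inhibitors Dusp6 (1.11 ± 0.10), Spry1 (3.06 ± 0.20) and Spry4 (2.00 ± 0.12) were higher, as was Spred1. The immediate early factor Egr1 was lower at -1.42, Myc at -1.60 and the AP-1 subunit Fosl1 at -2.35. Ccnd1, Dusp6 and Egr1 were named by the rule for bright members. Here and in later paragraphs, members outside that rule are named because few of their list were called, after their values were seen.

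Skin was strongly represented, by genes whose Cy3 signal also moved between arrays (median SD 1.02 for the keratinocyte list). Of 20 keratinocyte genes 19 were higher and none lower, with a median of 3.52, and the cornified envelope genes of the Sprr and Lce families were higher in 31 of 33. Krt16, a keratin of wounded epidermis, averaged 4.89 ± 0.18, the basal keratins Krt5 and Krt14 3.61 ± 0.16 and 3.43 ± 0.15, and the junction protein gene Perp 4.39 ± 0.35 (all limma adjusted p at or below 0.00034). Of 43 keratin genes 31 were higher. The 4 lower ones were the simple epithelial keratins Krt8 (-3.83), Krt18 (-3.97), Krt19 (-3.58) and Krt20 (-3.18), keratins of simple epithelia. Krt20 was named because few keratins were lower, and its Cy5 signal was above background on 3 of 4 arrays.

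Hair shaft and inner root sheath genes were higher in 15 of 17 (median 3.18), with 2 levels among the tumours and a median Cy3 SD of 1.61. Tchh, trichohyalin of the inner root sheath, read 8.43, 3.66, 8.34 and 3.26, against a reference above background on 2 of 4 arrays, so the size of that gap is not exact. Krt71 and Krt27 were measured in both channels on all 4. Krt71 and Krt27, inner root sheath keratins, read 6.03, 4.47, 5.24 and 3.46, and 5.40, 2.39, 4.72 and 1.85. Replicates 1 and 3 were high and 2 and 4 lower for all 3 genes, and the list means were 4.71, 2.05, 4.54 and 1.65. The shaft keratin Krt86 (4.77, 1.80, 4.54, 1.65) followed the same order. Krt73 was near 0 in replicates 2 and 4, at -0.07 and -0.22, and at 2.61 and 3.70 in the other 2. The keratin-associated proteins, the matrix between hair keratins, were higher in 39 of 44, with family means of 3.81, 1.34, 4.01 and 1.08. That count was 23 without replicate 1 and 29 without replicate 3. Many of these genes are near-identical copies whose probes cannot be told apart.

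**Figure D4:**
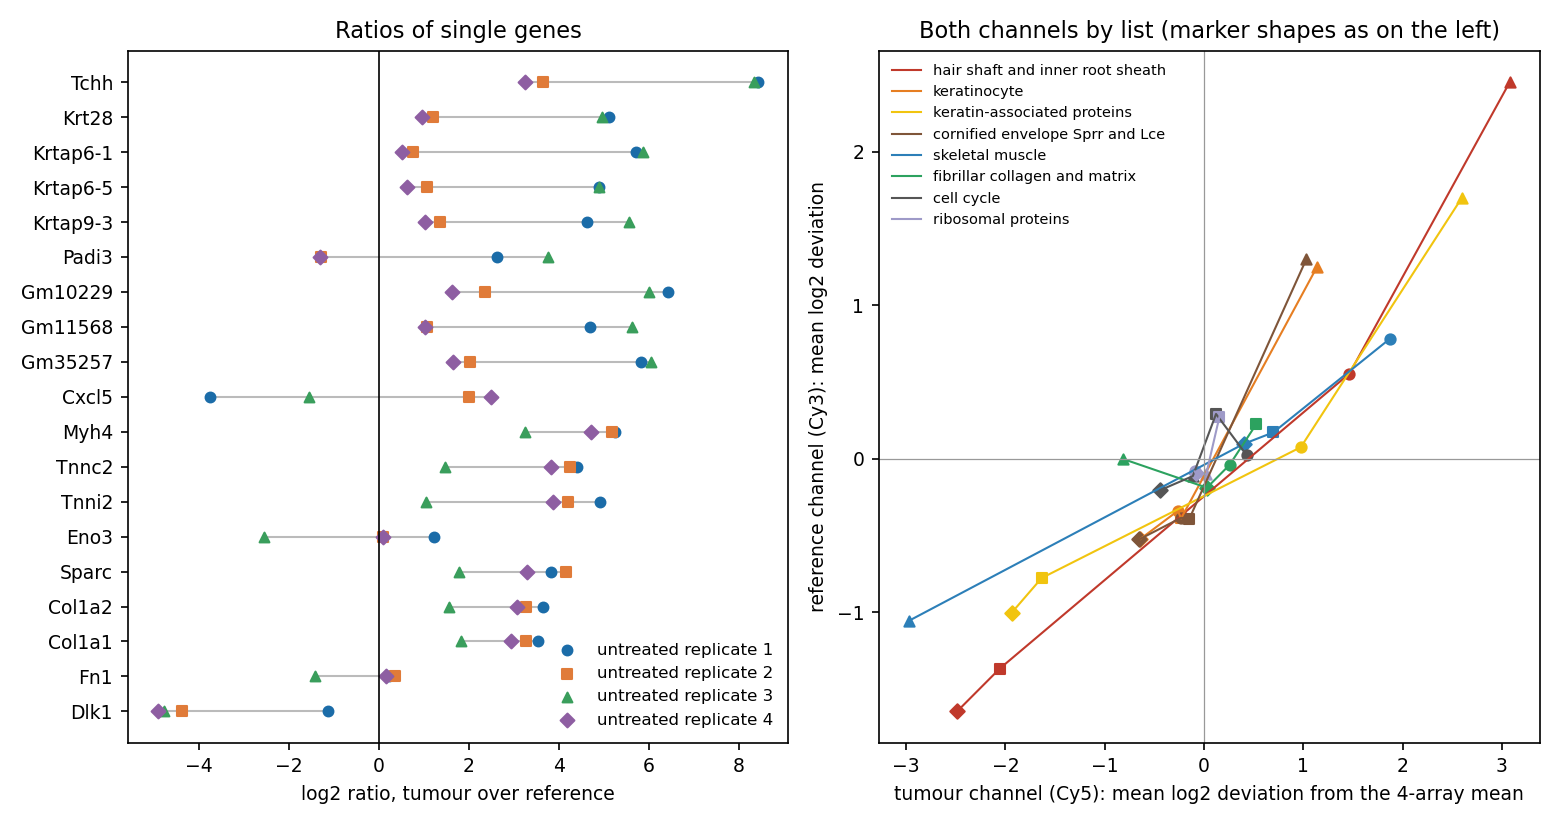
Left, log2 ratio of tumour over reference (horizontal axis) on each untreated array for the 10 genes of largest SD, for the brightest muscle and matrix genes and for Dlk1. Right, for 8 gene sets, the mean log2 deviation of Cy5 (horizontal axis) and Cy3 (vertical axis) processed signals from the 4-array mean, 1 point per tumour joined in order of Cy5. Skin and hair sets climb in Cy3 together with Cy5, up to 2.45 and 3.08 for the hair list in replicate 3, while matrix, ribosomal and cell cycle sets keep Cy3 within 0.3 of its mean.

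Matrix genes were higher in 16 of 20 (median 2.84). Col1a1 and Col1a2, the chains of type I collagen, averaged 2.89 each, with 3.54, 3.27, 1.82 and 2.94 for Col1a1. Sparc, a collagen-binding protein, averaged 3.27 on its brightest of 3 probes (0.45 on the lowest) and Fn1, fibronectin, -0.17. Replicate 3 was the lowest tumour for all 4 and had -1.41 for Fn1, against 0.15 to 0.35 in the others. Basement membrane genes were higher in 10 of 12, with Col4a2 at 2.76, the nidogen Nid1 at 2.06, the laminin chain Lamb1 at 1.64 and the heparan sulfate proteoglycan Hspg2 (perlecan) at 2.29. The collagen IV chain Col4a5 was the lower member at -2.42. Among fibroblast genes 8 of 16 were higher, such as the surface protein gene Thy1 at 2.18. The fibroblast median of 0.99 fell to 0.03, with 4 members lower, when arrays were only median-centred.

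Vessels were represented by 12 of 16 endothelial genes called higher (median 2.30). Plvap, which spans endothelial pores, averaged 3.35 ± 0.15 and the secreted Egfl7 2.32 ± 0.17. The VEGF receptor genes Kdr (0.59) and Flt1 (0.74) were not called on their brighter probes, though the other Kdr probe averaged 3.53. Pericyte and smooth muscle genes were mixed, 5 of 12 higher and 1 lower: the proteoglycan Cspg4, which melanoma cells also carry, averaged 2.51 and Notch3 1.31, while smooth muscle actin Acta2 averaged -0.92 and the lower Actg2 -1.45.

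Skeletal muscle genes were higher in 14 of 18 (median 2.60), and replicate 3 had the lowest ratios, with Cy3 also 1.05 log2 units below its mean there. Myh4, a fast myosin heavy chain, read 5.25, 5.17, 3.25 and 4.70. The troponins Tnnc2 and Tnni2 read 4.41, 4.24, 1.47 and 3.82, and 4.91, 4.20, 1.04 and 3.87. Eno3, the muscle enolase, read 1.23, 0.09, -2.54 and 0.10. Replicate 3 was lowest and replicate 1 highest for all 4 genes, and the list means were 3.40, 2.71, 0.44 and 2.41. The slow troponin Tnnt1 was the 1 lower member, at -2.07. Without replicate 2 or without replicate 4, 10 of the 18 were called higher, and without replicate 3 15. Fat cell genes were higher in 9 of 13: adipsin (Cfd) averaged 5.80, the fatty acid carrier Fabp4 4.88 and lipoprotein lipase (Lpl) 1.44. Sebaceous gland genes were higher in 8 of 12, with the elongase Elovl4 at 5.89 and the desaturases Scd1 and Scd3 at 1.84 and 1.02, and Soat1, which esterifies cholesterol, was lower at -1.06. Scd3 kept its call without replicate 3 and lost it without any 1 of the others.

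Myeloid genes stood above the reference and T cell genes on both sides of it. Of 18 monocyte and macrophage genes 13 were higher and none lower (median 1.79). Apoe, a lipid carrier of macrophages, averaged 4.56 ± 0.18, the CSF1 receptor gene Csf1r 1.78 ± 0.19 and the cathepsin Ctss 1.99 ± 0.21, and Itgam lay between -0.09 and 1.44 on its 3 probes and was not called. Dendritic cell genes were higher in 7 of 12, among them Irf8, the factor of the lineage, and the integrin Itgax at 1.75 and 1.78. Mast cell genes were higher in 5 of 6, with the proteases Cpa3 and Mcpt4 at 2.99 and 2.85, the histamine enzyme Hdc at 1.96 and Tpsb2 uncalled at 0.84. Granulocyte genes were split, 6 of 13 higher: S100a8 averaged 4.07 beside S100a9, whose Cy3 values are given above, and lipocalin 2 (Lcn2) was lower at -1.25.

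Among 15 T cell genes 4 were higher, the adhesion receptor Cd2 (1.96), the T cell receptor chain Cd3d (1.49), the costimulator Icos (1.81) and the IL-2 receptor chain Il2ra (1.45). The lower 3 were Cd28 (-1.46) and the signalling proteins Lat (-2.70) and Zap70 (-1.36). Cd3e (-0.25), Cd4 (0.37) and Lck (-0.97) were not called. The list mean was 0.43 in replicate 3 and between -0.32 and -0.20 in the other 3. Cytotoxic and NK cell genes were mostly seen in the tumour channel alone (7 of 12), with 3 of 12 called higher, a count of 8 with processed signals, 9 with normexp offset 0, 7 with no background correction, 5 with the value table and 7 without replicate 4. The 3 were granzyme A (Gzma) at 1.70, the NK receptor Klrd1 at 2.46 and interferon gamma (Ifng) at 1.19, which lost its call without replicate 1 or 3. Perforin (Prf1) averaged -0.39, Ccl5 -0.83, Gzmk 0.55 and Nkg7 0.95. Of 11 B and plasma cell genes 3 were lower, 2 higher and 6 neither. The B cell receptor chain Cd79b averaged -2.94, Ms4a1 (CD20) -3.43 and the immunoglobulin joining chain Jchain -2.62, and Sdc1 and Ebf1, which other tissues express, were higher at 1.43 and 1.14.

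Antigen presentation genes were high in all 4 tumours. Of 9 class II genes 7 were higher and none lower (median 2.88), with a Cy3 SD of 0.95 for H2-Ab1 and 0.87 for H2-Eb1. H2-Ab1, H2-Eb1, H2-DMb1 and the invariant chain Cd74 averaged 3.71, 2.91, 3.00 and 2.88. Of 12 class I genes 10 were higher (median 1.33), with H2-K1 and H2-D1 at 2.58 and 2.15, and B2m and H2-Q4 at 1.28 and 1.04. Under median centring 2 of the 12 stayed called, and B2m and H2-Q4 had ratios of -0.11 and -0.29. Interferon-response genes were higher in 12 of 24 (5 with median centring) and lower in 2, Ifi44 (-2.21) and Usp18 (-1.42). The regulator Irf1 averaged 1.43, Isg15 0.71 and Bst2 0.83, the last 2 uncalled, and replicate 3 had the highest list mean, 1.53 against 0.59 to 1.05. Complement genes were higher in 10 of 13 (5, with 1 lower, under median centring), with C4b at 4.67, the proteases C1ra and C1s1 at 1.37 and 1.55, and C3 uncalled at -0.93. Blood was present: of 7 erythroid genes 3 were higher, the alpha globins Hba-a1 (3.31) and Hba-a2 (3.35), whose near-identical copies share signal, and the beta globin Hbb-b1 (1.95), seen in Cy5 only. Neuronal genes were higher in 4 of 9 and lower in 1.

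**Figure D5:**
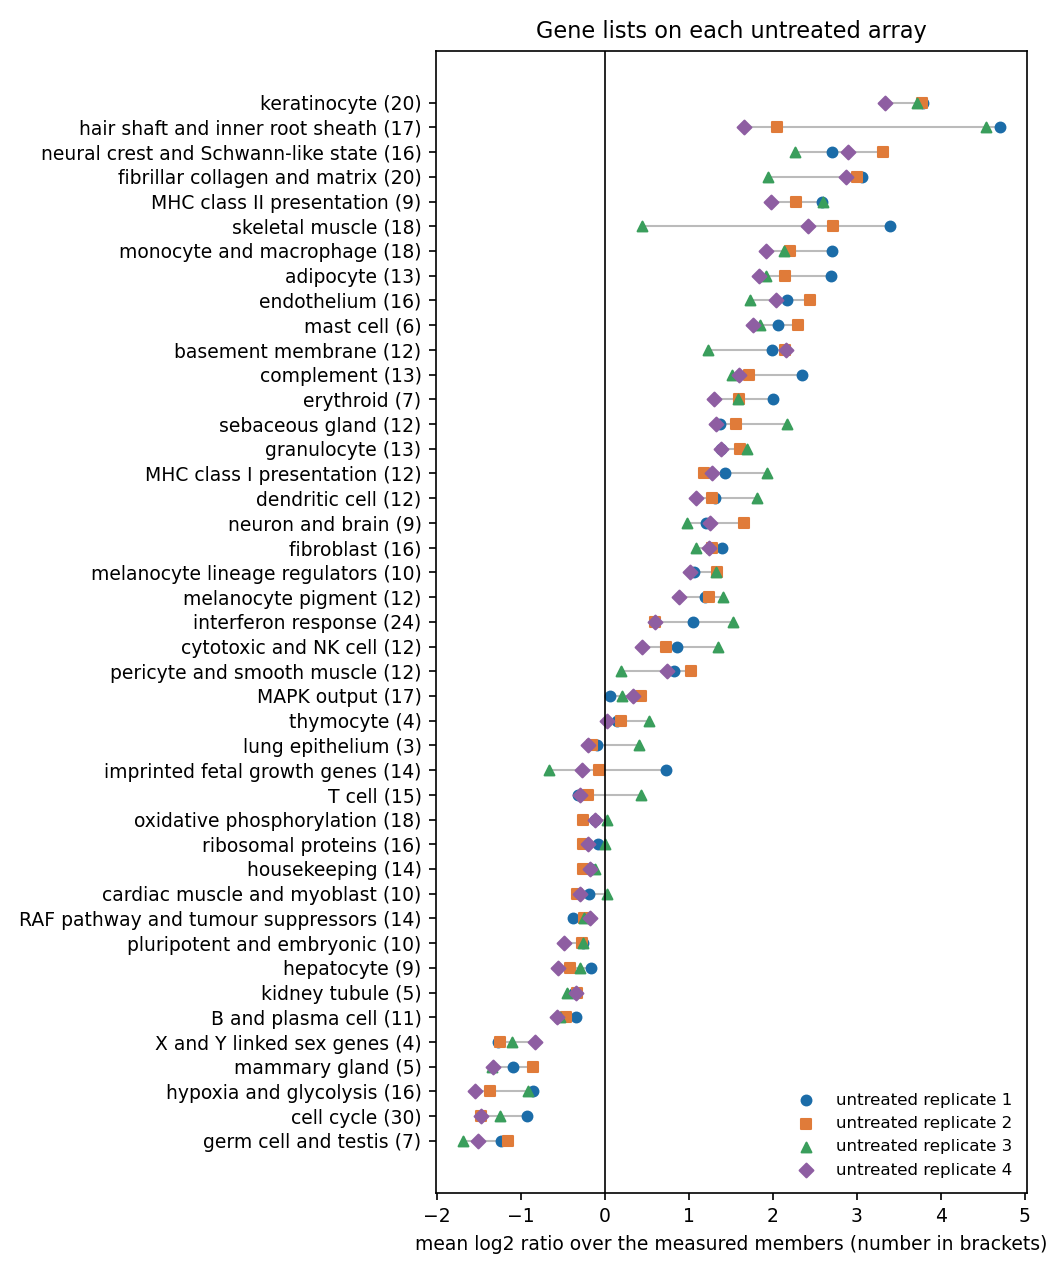
Mean log2 ratio of tumour over reference (horizontal axis) over the measured members of each gene list with at least 3 of them, 1 point for each untreated array. Keratinocyte, hair, neural crest and matrix lists lie highest and the cell cycle, hypoxia and germ cell lists lowest; hair (1.65 to 4.71) and muscle (0.44 to 3.40) spread most.

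The proliferation genes were lower than in the reference as a group. Of 30 cell cycle genes none was higher and 23 were lower (median -1.25), in every scaling tried 23 to 27. Pcna, the replication clamp, read -1.15, -1.53, -1.55 and -1.48, the helicase subunit gene Mcm6 -0.79, -1.01, -1.37 and -1.30, and Birc5, survivin, -0.59, -1.33, -1.40 and -1.60. Mki67, the antigen Ki-67, averaged -0.98 and missed the 2-fold minimum. Replicate 1 was the least negative tumour for Pcna, Mcm6 and Birc5, and its list mean was -0.93 against -1.48 to -1.26. Genes of hypoxia and glycolysis were lower in 9 of 16 and higher in none (median -1.42): Pgk1, a glycolytic kinase, averaged -1.88 ± 0.10, whereas Ldha and Eno1 averaged -0.98 and -0.73 and were not called. Gapdh was lower at -1.07, a call lost without replicate 4, and Actb was higher at 1.46 but read -0.18 after median centring. Of 16 ribosomal protein genes none was called, and of 18 oxidative phosphorylation genes 1 was lower. Median centring made all 16 and 13 of 18 of these lower, so their direction is set by the scaling. Lists of organs the biopsy should lack held few members that could be tested: 3 of 9 lung, 9 of 20 hepatocyte and 5 of 12 kidney genes. Of these none was higher, and 1 liver and 1 kidney gene were lower, beside 13.5% higher and 7.55% lower over all genes tested. With so few members these counts cannot be told from those shares. Of the thymocyte, pluripotent, cardiac and mammary lists, 1 of 4, 0 of 10, 1 of 10 and 2 of 5 were higher and 1, 1, 2 and 3 lower.

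The lowest ratios marked transcripts of the reference. Msln, mesothelin of serosal linings, read -4.79, -4.78, -5.42 and -5.38, 34.2-fold below the reference. Rhox5, a homeobox gene of testis, placenta and many cultured lines, averaged -4.78 ± 0.14. The B and plasma cell genes Pou2af1 (-3.81) and Mzb1 (-3.49), the meiotic gene Syce1 (-3.45), the MYC relative Mycl (-3.58) and Gchfr (-3.54), a regulator of biopterin synthesis, were also among the 12 lowest, as were keratins and Dlk1. For 1166 genes only the reference channel was above background. The highest bounds were for Spinkl (at least 23.5-fold lower in tumour), Gm2030, Slx, Gm5168 and Gm15085, X-linked genes (at least 11.2-, 10.5-, 7.68- and 7.24-fold lower), Phex (at least 8.59-fold), a bone phosphate regulator, and Afp (at least 7.70-fold), alpha-fetoprotein of fetal liver. The oncofetal gene Hmga2 was lower at -3.07 and the germ line gene Tex19.1 at -3.16.

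The Y-linked genes Ddx3y (at least 6.96-fold lower) and Eif2s3y (-2.78) were above background in the reference only, and Uty averaged -0.48 with no Cy5 signal above background on any array. Xist, the X-inactivation transcript, read 1.62, 1.46, 1.45 and 2.15. All 4 untreated tumours therefore showed Xist and no Y-linked signal above background.

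Over 19143 genes with Cy5 above background on all 4 arrays, the SD of the ratio between the 4 tumours had a median of 0.249, and 367 genes had an SD over 1. Each tumour was 1 array, so tumour and array differences cannot be told apart. Of the 10 most variable genes 9 belong to hair or to the cornifying follicle: Krtap6-1 (5.71, 0.76, 5.87, 0.52), Tchh, Krtap6-5, Krtap9-3, Krt28, Gm10229, Gm11568, Gm35257 and Padi3, a deiminase of hair proteins, at 2.63, -1.27, 3.76 and -1.31. Replicates 1 and 3 were high and 2 and 4 low for all 9. Calls for Krtap6-1 and Krtap6-5 were lost without replicate 1 or 3, and those for Krt28, Gm11568 and Krtap9-3 without replicate 1. The last was Cxcl5, a neutrophil-attracting chemokine, with the opposite order, -3.75, 2.00, -1.54 and 2.50, and a mean of -0.20 that has no settled sign. Replicates 1 and 2 shared one slide and 3 and 4 the other, but replicates 1 and 3 both lay in array row 2 and replicates 2 and 4 in array row 1, so this split and the array row cannot be told apart. For 7 of the 9 genes, all but Gm35257 and Padi3, the reference was above background on 1 to 3 arrays, so the sizes of their gaps are not exact.

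The imprinted growth genes Dlk1, H19, Plagl1 and Meg3 were highest in replicate 1. Dlk1, a membrane protein of fetal and progenitor cells, read -1.13 there and -4.38, -4.77 and -4.91 in the others on its brighter probe. Its other probe gave a smaller gap, -0.85 there and -2.05, -2.66 and -2.62 in the others. H19, a noncoding RNA, read 0.42, -1.31, -2.60 and -1.67, and the zinc finger gene Plagl1 3.102, 0.23, -0.86 and -0.05. Meg3, the noncoding RNA next to Dlk1, was higher in all 4 at 3.88, 2.71, 2.80 and 2.45. Its Cy3 signals moved too, at 1454, 400, 727 and 375 beside Cy5 signals of 19821, 2969, 4850 and 2425. The list mean was 0.73 in replicate 1 and -0.67 to -0.08 in the others, and 3 of the 14 genes were called higher and 4 lower. By the rule for outlying samples given below Dlk1 was marked, but H19, Plagl1, Meg3 and the list mean were not.

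Against the mean of the 3 treated groups on the same reference, 384 genes were higher in untreated tumours (1.69% of those tested) and 172 lower (0.756%), by limma on 16 arrays with an adjusted p under 0.05. No title code occurred in more than 1 group. STS marked the 4-day titles, RG6 and RG7 the 60-day, RG4 and RG5 the Resistant and RG9 and RG10 the Untreated titles. Group and code therefore cannot be told apart in this contrast, and the fit treated arrays of a shared code as independent. Among the largest differences, Mest, an imprinted hydrolase gene, averaged 4.15 ± 0.89 (SD) untreated and 2.76 ± 0.70, 1.16 ± 0.14 and 2.21 ± 1.21 at 4, 60 and 120 days. Those values are for its brightest probe, and its other probes averaged 3.48 and 1.63 untreated. The Cy3 processed signal of Mest was 245 to 462 on the untreated arrays and 152 to 5706 on the 12 others. Tmem200a averaged 2.25 ± 0.29 against -0.12, 0.31 and 0.93 (limma adjusted p = 0.00091), and Adamts4, a protease of proteoglycans, 4.72 ± 0.19 against 1.95, 3.11 and 4.22 on its brighter probe (1.77 untreated on the other). D630010B17Rik and Klhl30 were 1.78 and 1.66 log2 units higher. Lowest against the treated groups were Dgat2l6 (-2.15), a sebaceous acyltransferase, Adh1 (-2.12), an alcohol and retinol dehydrogenase, Fgl2 (-1.78), Aldh1a1 (-1.70), which makes retinoic acid, and Wfdc21 (-1.69). Dgat2l6 had Cy3 signals of 5 to 26 on the untreated arrays, none above background, and 17 to 3985 on the 12 others. The part of Cy3 in the Mest and Dgat2l6 differences was not tested. Adh1 averaged 1.20 ± 0.48 untreated and 3.52 ± 0.24, 3.18 ± 0.35 and 3.25 ± 0.47 at 4, 60 and 120 days. Tmem200a and Adh1 kept their call with any 1 of the 16 arrays left out, and the other 8 did not.

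Among the lists, the cell cycle genes had the most members past the threshold (6), with 3 each among MAPK output and sebaceous genes. Ccnd1 averaged 2.52 ± 0.51 (SD) untreated and 0.12 ± 0.41, 1.20 ± 0.62 and 1.64 ± 0.16 at 4, 60 and 120 days, Dusp6 1.11 ± 0.16 and 0.17, 0.13 and 0.23, and Spry4 2.00 ± 0.25 and 0.13, 1.11 and 1.08 (limma adjusted p = 0.0092, 0.010 and 0.042). These 3 of 17 MAPK output genes were higher in untreated tumours and none was lower. Spry4 kept its call in 5 of the 16 fits that left out 1 array, and Ccnd1 and Dusp6 lost theirs without untreated replicate 2. In the cell cycle list 6 of 30 were higher, E2f1, Mcm2, Mcm3, Mcm4, Mcm6 and Pcna, by 0.51 to 0.80 log2 units, of which E2f1 and Mcm3 kept their call without any 1 array. Of the 22 pigment and lineage genes only Gpnmb passed the threshold (-1.49, limma adjusted p = 0.041), in 4 of the 16 fits that left out 1 array, and no keratinocyte, hair, muscle, endothelial, macrophage, T cell or class I or II gene of the lists passed. Granzyme A was 1.40 log2 units higher in untreated tumours and kept its call without any 1 array. The count over all genes was 12 with median centring and 1135 with slide as a block. Without untreated replicate 1, 2 or 4 the 556 genes became 75, 53 or 100, and without untreated replicate 3 or resistant replicate 1 they became 1328 or 1700.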

How the data were processed

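RNA from 16 melanoma biopsies was measured on 2-colour Agilent mouse arrays, 1 array a biopsy, on 2 slides holding 2 arrays of each group each. Per the labels' protocols, 25 ng of total RNA was labelled, tumour with Cy5 and reference with Cy3 on every array. The deposited intensity values (mean signals and median backgrounds per spot) were extracted by version 10.7.3.1 of the Agilent scanner software. Per the file headers, probe positions follow build mm9. The deposited log10 ratio of Cy5 over Cy3 was formed from that software's background-subtracted, dye-normalized signals, per the file headers. The authors' value table holds uncentred log2 ratios, each array's being 0.993 times the scanner ratio brought to log2, with some values left empty by a rule the sources do not state. It served as an alternative.

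Intensities were background-corrected (normexp, offset 50) and loess-normalized within each array with control spots at weight 0, in limma 3.58.1 under R 4.3.3. Outlier-flagged spots were dropped and spots averaged to probes. Of 55681 probes, 32073 with either channel well above background on at least 3 of the 4 untreated arrays were kept. The brightest probe stood for each of 22743 genes, 16147 of them with a RefSeq symbol; the symbols came from a table of another build, so no coordinate was converted. limma tested the mean log2 ratio against 0, with an adjusted p (Benjamini-Hochberg) under 0.05 and a change of at least 2-fold. The 4-group fit set untreated tumours against the mean of the other 3 groups with the same adjusted p and no fold minimum. A bound ("at least") sets the bright channel's mean against the higher, on each array, of the dim signal and the lowest signal well above background, after loess and Aquantile scaling, and is open to dye bias.

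Genes were named by rule: the 12 highest and 12 lowest called genes measured in both channels, the 8 highest bounds each way, the 4 brightest members of each list, all lineage genes, the 10 most variable genes, and the 5 largest differences each way from the other groups. The members and the 43 gene lists were chosen with earlier results of these data known. A few genes that the rule names are not reported here. The statistics were tested on simulated data. The number of arrays, the fixed dye, the scaling and the moving reference signal all limit the precision.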

Additional observations from a re-analysis of the deposited data

Results flagged for a closer look

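Among 4 tumours, a sample whose gap to its nearest neighbour takes up most of the group's range was marked. Chance marks about 1 in 20 such groups. Of 43 list means 4 were marked, a larger share than 1 in 20, and of 212 genes 11, close to that share. The lists and genes were read on the same 4 arrays, so their marks are not independent. Single marks are given as values only. Replicate 3 was the sample apart in 10 of these 15.

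Matrix genes of replicate 3 were low. Its matrix list mean was 1.94, against 2.87 in the next tumour, with Fn1 at -1.41 (next 0.15) and Col4a2 at 1.94 (next 3.02). Ccnd1 was also low, at 1.75 (next 2.72).

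Some lymphocyte and interferon genes of replicate 3 were high. Its T cell list mean was 0.43 (next -0.20), Zap70 -0.45 (next -1.62), Ccl5 0.011 (next -0.9997), Gzma 2.24 (next 1.57) and Bst2 1.43 (next 0.67). The sebaceous desaturase gene Scd1 was high there too, at 2.31 (next 1.72). Other lymphocyte genes did not follow. The T cell gene Cd3e had its lowest Cy5 processed signal in replicate 3, 1995 against 2742 to 4080 in the others, at Cy3 signals of 3594 to 4307. The B and plasma cell list mean was -0.54 in replicate 3, within the -0.57 to -0.34 of the others.

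Replicate 4 was low for the keratinocyte list mean at 3.33 (next 3.72), the pluripotent list mean at -0.49 (next -0.27) and Cd2 at 1.68 (next 2.04). Replicate 1 was high for Dlk1 at -1.13 (next -4.38) and low for Fosl1 at -2.60 (next -2.29). The other Dlk1 probe had a smaller gap, -0.85 in replicate 1 (next -2.05).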

How the results depend on the processing

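No gene called in the reported setting was called the opposite way in any other scaling or filter run with 1 value a gene, but the counts moved. Most of these runs used the same single probe for each gene, so they do not show whether probes of a gene differ. Of 6384 genes with several probes kept, 1850 had probes with mean ratios on both sides of 0. Genes lower in tumour numbered 3970 with the scanner software's processed signals, 2600 with normexp offset 0 and 3384 with the deposited value table, and median centring gave 1914 higher and 5361 lower. Without a fold minimum 6677 were higher and 6163 lower, and limma's treat against 2-fold gave 1440 and 665. For the spread among the 4 untreated tumours, genes with an SD over 1 numbered 606 with processed signals and 200 to 559 without 1 untreated tumour. Genes differing from the other groups numbered 334 with processed signals, 12 with median centring, 252 with the value table, 1135 with slide as a block and 53 to 1700 without 1 array. A filter over all 16 arrays, chosen after seeing the data, gave 541. The causes were not tested.

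Some genes near 0 changed sign. With median centring Cdkn2a was -0.96, Mitf -0.24, Kdr -0.25, Itgam -0.071, Cd4 -0.32, B2m -0.11, H2-Q4 -0.29, Isg15 -0.26, Bst2 -0.068, Plagl1 -0.070 and Actb -0.18. Fn1 was 0.012 with processed signals, 0.012 with the value table and 0.29 on slide 2 alone. Slide 2 alone gave Eno3 0.66, and slide 1 alone Cxcl5 0.48, Rab27a 0.15 and Plagl1 -0.46. Without 1 tumour, Cxcl5 ranged from -1.10 to 0.98, Cdkn2a from -0.13 to 0.28, Rab27a from -0.19 to 0.022, Fn1 from -0.34 to 0.24, Eno3 from -0.79 to 0.47 and Plagl1 from -0.23 to 1.09. No paired analysis was possible because the replicate numbers were given in accession order and pair no samples across groups.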
